A study of Rattus norvegicus with 19 samples.

Results

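The primary cilium transport genes encode the machinery that moves proteins into, along and out of the primary cilium. They were taken as every probe set whose gene symbol was that of a numbered Bbs or Ift gene, or of a listed kinesin-2, dynein-2, IFT-A, GTPase or adaptor gene. On the Affymetrix rat genome array, 56 of 31042 tested probe sets met the rule, and they stood for 39 of 14217 named genes. Kif17, Ttc21b and Arl13b were in the rule and had no listed probe set. Its members were chosen by symbol, and the family was proposed because Bbs4, Bbs5, Ift70a1 and Kifap3 were lower at day 14 than in naive ganglia in earlier results of these data. It was thus picked on the day 14 against naive values, which are given here as a description.

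All animals were adult female Sprague-Dawley rats, with the T11 dorsal root ganglion (DRG) of 1 rat on each of 19 arrays. The day 14 (n = 7) and day 7 (n = 7) rats had the dorsal and lateral cutaneous nerves of T9, T10, T12 and T13 cut on 1 side, so that the spared T11 nerve could sprout collaterals into denervated skin. The naive rats (n = 5) had no operation, and a sham operation is not analysed here, so nerve cutting and the operation itself cannot be told apart. A whole ganglion holds neurons, glia, fibroblasts and blood vessels, and fewer cells of a type and less RNA per cell cannot be told apart in such a sample. All values are log2 expression.

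Primary cilia are single, immotile sensory projections of the cell body, also found on neurons and glia. Intraflagellar transport (IFT) trains, built of IFT-B and IFT-A complexes, are carried towards the tip by kinesin-2 and back to the base by dynein-2. The BBSome, named after Bardet-Biedl syndrome, rides on these trains and takes receptors out of the ciliary membrane. Many genes of this machinery are targets of RFX transcription factors, which bind the X-box in their promoters.

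The promoter windows of the 4 genes that prompted the family are shown with a short half-site of this element marked. They are RefSeq windows of assembly GRCr8, from 250 bases before to 50 bases after the gene start, in the direction of the gene. Bbs5 lies at chr3:74818390-74818689 on the plus strand, Bbs4 at chr8:68661183-68661482 on the minus strand, Ift70a1 at chr3:81312563-81312862 on the minus strand and Kifap3 at chr13:78671051-78671350 on the plus strand. Capitals mark GTTGCC, an X-box half-site, which was searched on both strands.
Bbs5: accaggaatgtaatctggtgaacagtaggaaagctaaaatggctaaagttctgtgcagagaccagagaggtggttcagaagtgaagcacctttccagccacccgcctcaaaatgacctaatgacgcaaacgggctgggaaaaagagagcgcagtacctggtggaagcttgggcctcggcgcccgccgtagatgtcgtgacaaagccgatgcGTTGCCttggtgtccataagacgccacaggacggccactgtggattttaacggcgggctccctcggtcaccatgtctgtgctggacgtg
Bbs4: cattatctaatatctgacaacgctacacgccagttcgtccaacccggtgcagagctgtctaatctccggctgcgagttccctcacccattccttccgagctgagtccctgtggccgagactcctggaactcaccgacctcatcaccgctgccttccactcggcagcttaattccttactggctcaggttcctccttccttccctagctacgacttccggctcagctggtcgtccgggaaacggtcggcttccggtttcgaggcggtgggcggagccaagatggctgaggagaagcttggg
Ift70a1: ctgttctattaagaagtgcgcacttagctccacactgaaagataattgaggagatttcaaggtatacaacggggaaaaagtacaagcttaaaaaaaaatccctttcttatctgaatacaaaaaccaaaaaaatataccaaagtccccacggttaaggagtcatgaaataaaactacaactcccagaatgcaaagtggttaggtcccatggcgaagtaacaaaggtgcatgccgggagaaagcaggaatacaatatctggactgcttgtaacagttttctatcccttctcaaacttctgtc
Kifap3: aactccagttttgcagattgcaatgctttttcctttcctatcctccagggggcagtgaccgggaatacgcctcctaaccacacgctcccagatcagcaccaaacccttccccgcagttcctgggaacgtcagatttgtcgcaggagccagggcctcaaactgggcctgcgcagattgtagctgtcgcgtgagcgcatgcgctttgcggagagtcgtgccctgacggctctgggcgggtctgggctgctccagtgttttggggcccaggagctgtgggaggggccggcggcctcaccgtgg

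Of the 4 windows, that of Bbs5 held the half-site, with its first base 39 bases before the start. The longer X-box consensus, which is not marked, matched the window of Bbs4 and not that of Bbs5, Ift70a1 or Kifap3. Windows were found for 33 of the 39 genes, 34 in all, and 17 of them (50%) held GTTGCC on either strand. Among all 33469 promoter windows of the same length the share was 12.2%. The X-box consensus, a degenerate pattern that can contain the half-site, matched 24 member windows (70.6%), against 35.4% of all windows, and 12 member windows held both. A match is a string of letters in the window and was not tested as a binding site.

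BBSome subunits had the lowest differences from naive in the family at day 14. In Bbs4 (probe set 1374327_at), a subunit at the edge of the complex that also interacts with centriolar satellites, the level ran from 6.27 over a median of 6.39 to 6.65 in day 14 ganglia. It ran from 6.45 over 6.85 to 7.07 in day 7 ganglia and stood at 7.04, 7.36, 7.11, 7.38 and 6.74 in naive ganglia. All 7 day 14 arrays lay below all 5 naive arrays, while the day 7 arrays overlapped both groups.

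The difference of Bbs4 was -0.71 ± 0.11 log2 (SE), a ratio of 0.612 of day 14 to naive. Its other probe set, 1383007_at, averaged 6.67 ± 0.19 at day 14, 7.00 ± 0.26 at day 7 and 6.80 ± 0.24 in naive ganglia (SD, n = 7, 7 and 5). There the groups overlapped, and the day 7 mean was the highest, so both Bbs4 probe sets differ in their order of groups.

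Bbs5 (1378656_at), the subunit that binds phosphoinositides in the membrane, had levels from 6.17 over 6.50 to 6.56 at day 14. The day 7 levels ran from 6.40 over 6.58 to 6.74, and the naive levels were 7.04, 6.80, 6.71, 6.76 and 6.99. Every day 14 array lay below every naive array, and a single day 7 array overlapped the naive range. The day 14 minus naive difference was -0.41 ± 0.08, and the day 7 minus naive difference was -0.28 ± 0.08 (adjusted p = 0.406, limma).

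Across the subunits, 8 of 9 probe sets and all 6 genes had a lower mean at day 14 than in naive ganglia, with a median over the probe sets of -0.14. Bbs1, which contacts the GTPase Arl6 at the membrane, had a difference of -0.53 on 1383417_at and -0.03 on 1386732_at. The first ranged from 6.55 to 7.16 at day 14, from 6.38 to 7.42 at day 7 and from 6.96 to 7.94 in naive ganglia, so the groups overlapped. Bbs9, a scaffold of the complex, was nearest to naive of the 6 genes, at -0.06, when each was read on its probe set with the highest mean. Bbs7 (1380515_at) is added here after its values were seen, with -0.23 and all day 14 arrays below all naive ones, while its other probe set stood at 0.06.

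**Figure D1:**
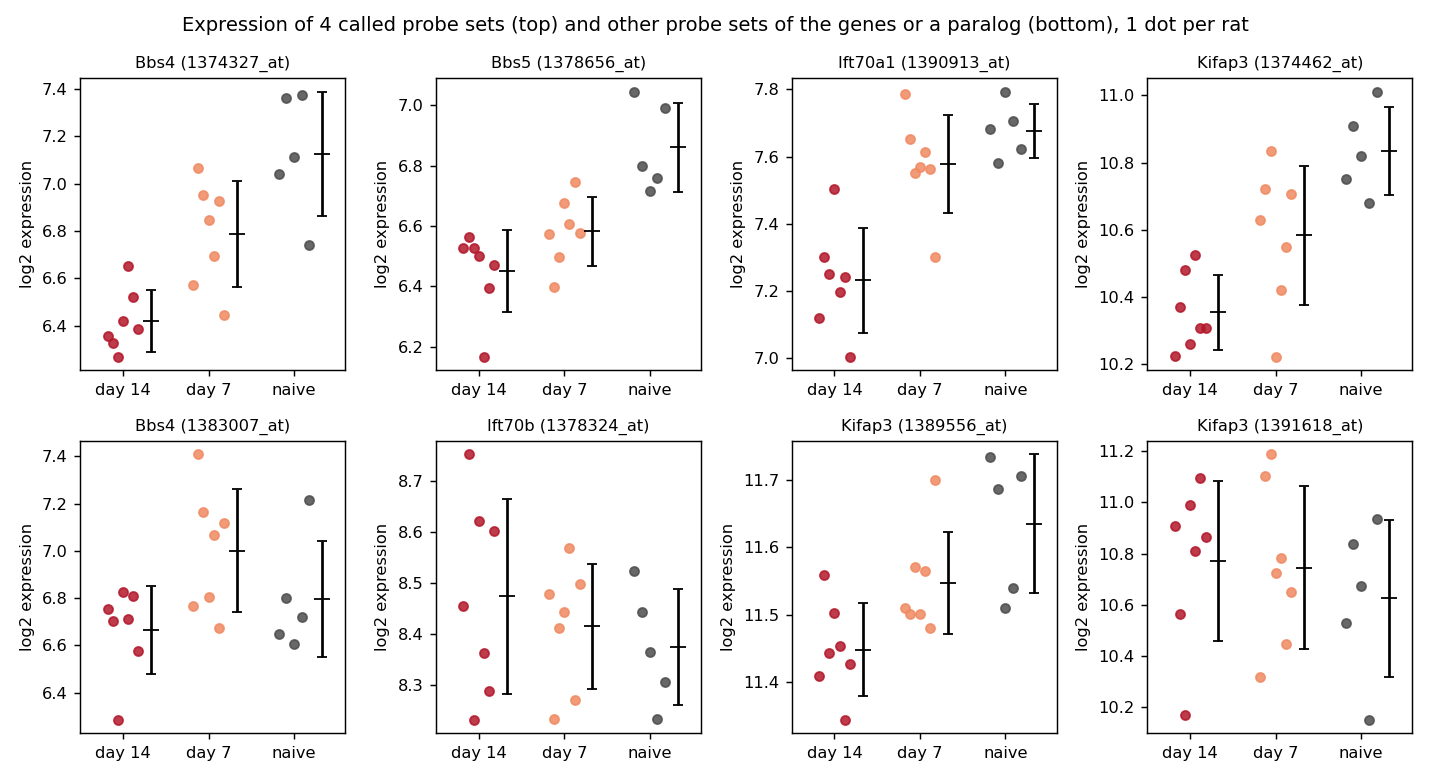
Log2 expression (vertical axes) of 8 probe sets in day 14, day 7 and naive ganglia, 1 dot per rat, with the mean and SD as bars. In the top row (Bbs4, Bbs5, Ift70a1, Kifap3) the day 14 dots lie below all naive dots, while the other probe sets of Bbs4 and Kifap3 and the paralog Ift70b in the bottom row overlap between groups.

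The factors that assemble or recruit the BBSome had 5 of 5 probe sets below naive at day 14, by small amounts. Lztfl1, which regulates BBSome traffic, had the lowest at -0.22 ± 0.08. It averaged 8.25 ± 0.19 at day 14, 8.39 ± 0.07 at day 7 and 8.47 ± 0.11 in naive ganglia. Mkks, a chaperonin-like protein of BBSome assembly, stood at -0.01 on both of its probe sets (SE 0.09 and 0.10). Arl6, added here after its values were seen, stood at -0.03 ± 0.10. The Mkks and Arl6 values thus lay within their SE of naive. Of all probe sets 43.6% were lower at day 14, and of those at or above the median level 57.5%.

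In the IFT-B train, which carries cargo such as tubulin outward, 15 of 22 probe sets and 14 of 16 genes were lower at day 14. Ift70a1 (1390913_at), a tetratricopeptide-repeat subunit, had levels from 7.00 over 7.24 to 7.50 in day 14 ganglia. It ran from 7.30 over 7.57 to 7.79 in day 7 ganglia and stood at 7.68, 7.58, 7.79, 7.71 and 7.62 in naive ganglia. No day 14 array reached the lowest naive array, whereas 3 day 7 arrays lay within the naive range and 4 below it.

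The day 14 minus naive difference of Ift70a1 was -0.45 ± 0.08, a ratio of 0.734. Day 7 minus naive was -0.10 ± 0.08 (adjusted p = 0.765, limma) and day 14 minus day 7 was -0.35 (adjusted p = 0.233). Its paralog Ift70b (1378324_at) had the highest difference of the IFT-B genes when each was read on its probe set with the highest mean, at 0.10, with all 3 groups overlapping. Ift70a1, Ift70a2 and Ift70b are closely related, and which of them each probe set detects was not tested.

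**Figure D2:**
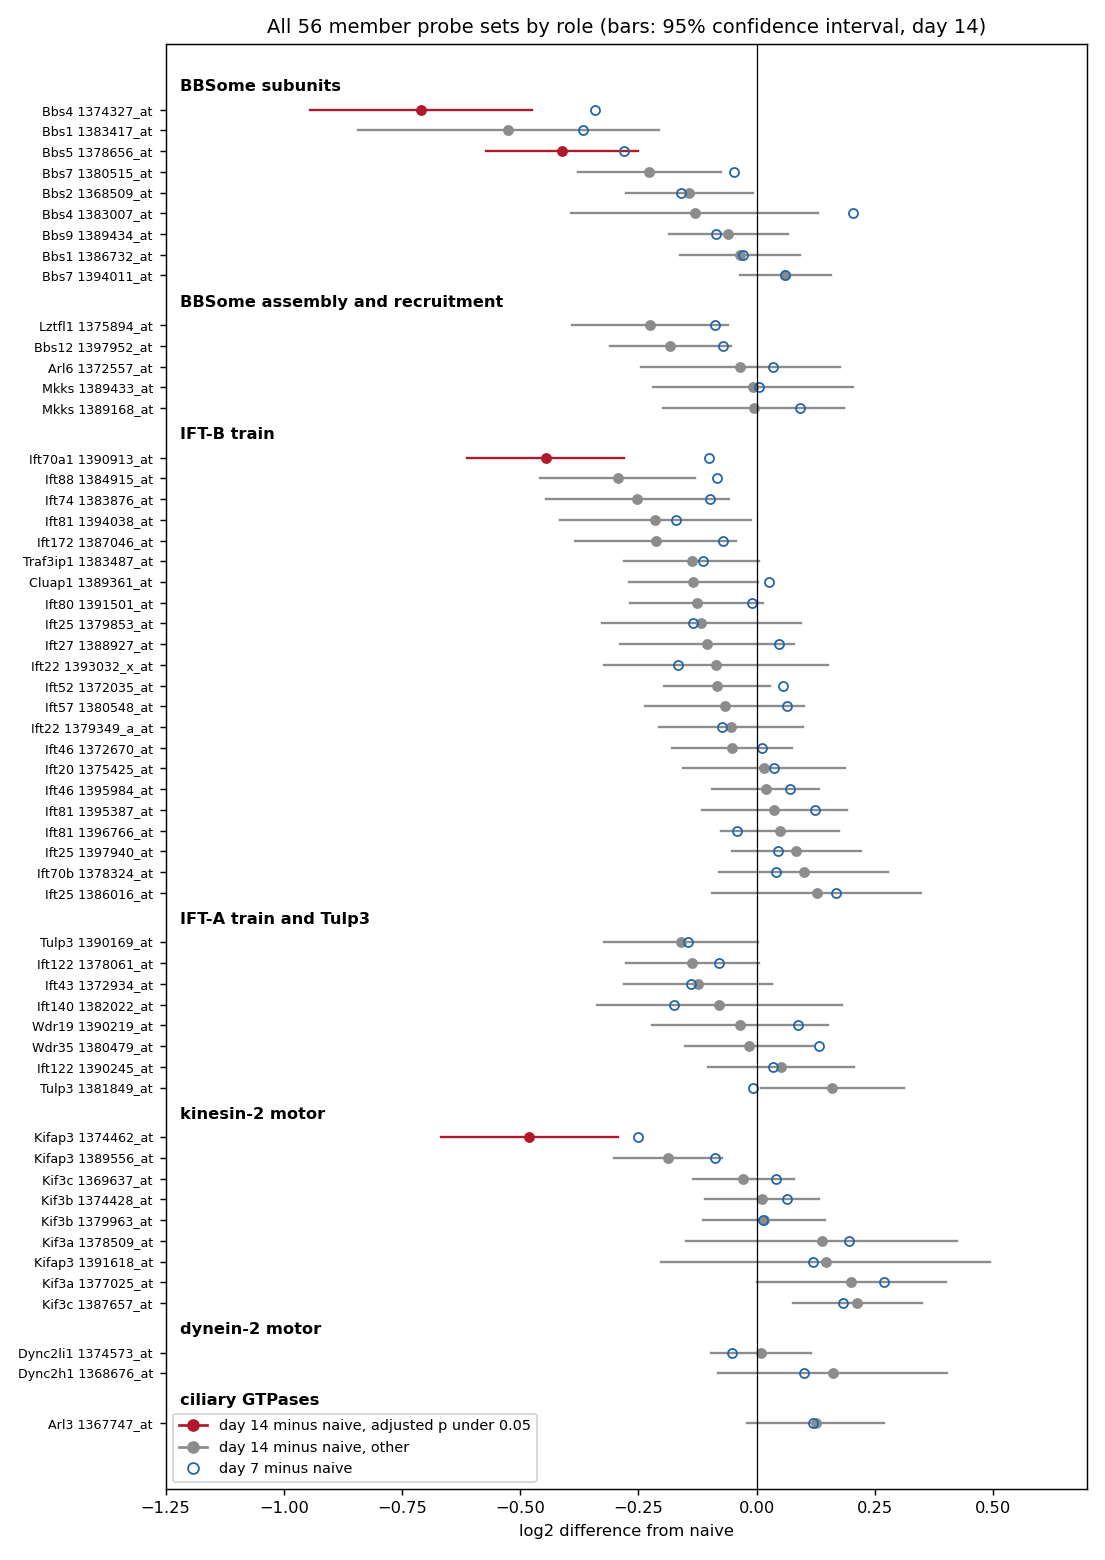
Log2 difference from naive (horizontal axis) of all 56 probe sets, ordered by role. Filled dots are day 14 minus naive with 95% confidence intervals, red for an adjusted p under 0.05, and open circles are day 7 minus naive. The lowest values are in the BBSome subunits, the IFT-B train and Kifap3, and the kinesin-2 motors and dynein-2 hold values above 0.

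Several IFT-B genes named here after their values were seen had intermediate differences. Ift88, a core subunit, stood at -0.29, and ran from 8.89 to 9.26 at day 14, from 9.11 to 9.44 at day 7 and from 9.15 to 9.61 in naive ganglia. Ift74, which forms a tubulin-binding module with Ift81, stood at -0.25. Its partner Ift81 gave -0.21, 0.04 and 0.05 on its 3 probe sets. Ift172, at the periphery of the train, stood at -0.21.

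The IFT-A train and Tulp3, which together bring receptors into the cilium, lay nearer to naive. Of 8 probe sets 6 were lower, with a median of -0.06. Tulp3, the adaptor, had -0.16 on 1390169_at and 0.16 on 1381849_at, so its probe sets disagreed in sign. Wdr35, an IFT-A subunit, had the value nearest 0 among the 6 genes read the same way, at -0.02.

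Of 9 kinesin-2 probe sets 3 were lower at day 14 than in naive ganglia, 2 of them for Kifap3. In Kifap3 (1374462_at), which links kinesin-2 to its cargo, the levels ran from 10.22 over 10.31 to 10.52 at day 14. They ran from 10.22 over 10.63 to 10.83 at day 7 and were 10.75, 10.91, 10.82, 10.68 and 11.01 in naive ganglia. The day 14 and naive arrays did not overlap, and the day 7 arrays overlapped both. The difference was -0.48 ± 0.09, a ratio of 0.717. A second Kifap3 probe set, 1389556_at, stood at -0.19 ± 0.05 with overlapping groups, and the third, 1391618_at, at 0.15 ± 0.17.

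Kif3a, the motor subunit shared by kinesin-2 complexes, had 0.20 on 1377025_at and 0.14 on 1378509_at. The first ran from 8.34 to 8.89 at day 14, from 8.52 to 8.88 at day 7 and from 8.24 to 8.58 in naive ganglia. Both Kif3b probe sets were within 0.02 of naive. Kif3c, a kinesin-2 motor of neurons added here after its values were seen, had 0.21 on 1387657_at, with all day 14 arrays above all naive ones, and -0.03 on 1369637_at. Kinesin-2 also carries cargo in axons, so its transcripts are not limited to ciliary work.

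The 2 genes of the retrograde motor in the family had no lower mean at day 14 than in naive ganglia. Other dynein-2 genes stand in a list outside the family. Dync2h1, the dynein-2 heavy chain, stood at 0.16 ± 0.12 and Dync2li1, its light intermediate chain, at 0.01 ± 0.05. Arl3, a GTPase that releases lipid-modified cargo inside the cilium, stood at 0.13 ± 0.07.

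Over the family, 4 of 56 probe sets (7.14%) were called lower at day 14 than in naive ganglia in a limma fit over all probe sets, with adjusted p-values between 0.0186 and 0.0338. Of all tested probe sets 0.139% were called in either direction, 0.113% lower and 0.0258% higher. The calls were those on Bbs4, Bbs5, Ift70a1 and Kifap3 that prompted the family. The count was 0 without naive replicate 3, 1 without naive replicate 5 or day 14 replicate 5 or 6, and 2 without naive replicate 2 or day 14 replicate 7. In 5 members all day 14 arrays lay below all naive arrays (0.751% of all probe sets), and in 1 they lay above (1.07%). Because this comparison chose the family, nothing is read from these shares.

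By sign, 37 of 56 probe sets were lower at day 14, with a median of -0.057, against 43.6% of all probe sets and a median of 0.021. That background depended on the level: among members at or above the median level of all probe sets 29 of 40 (72.5%) were lower with a median of -0.081, against 57.5% and -0.026 of all such probe sets. Below it 8 of 16 members were lower with a median of 0.002, against 29.7% and 0.059. With the probe set of the highest mean for each gene, 32 of 39 genes were lower with a median of -0.117, against 49.3% and 0.003 for all genes. Without the 4 genes that prompted the family, 31 of 49 probe sets (63.3%) were lower with a median of -0.034. All probe sets had 43.6% lower, and those at or above the median level 57.5%, while the 49 are of all levels. With 1 probe set per gene, 28 of the 35 remaining genes (80.0%) were lower with a median of -0.086, against 49.3% of all genes. Among the 14 genes with several probe sets, 8 had probe sets on both sides of naive. In Bbs7, Ift122, Ift46, Ift81, Kif3c and Tulp3 every probe set above naive averaged below the median level of 6.72. That is the range where 29.7% of all probe sets were lower. Ift25 and Kifap3 also had a brighter probe set above naive. A gene's value thus depended on the probe set read.

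**Figure D3:**
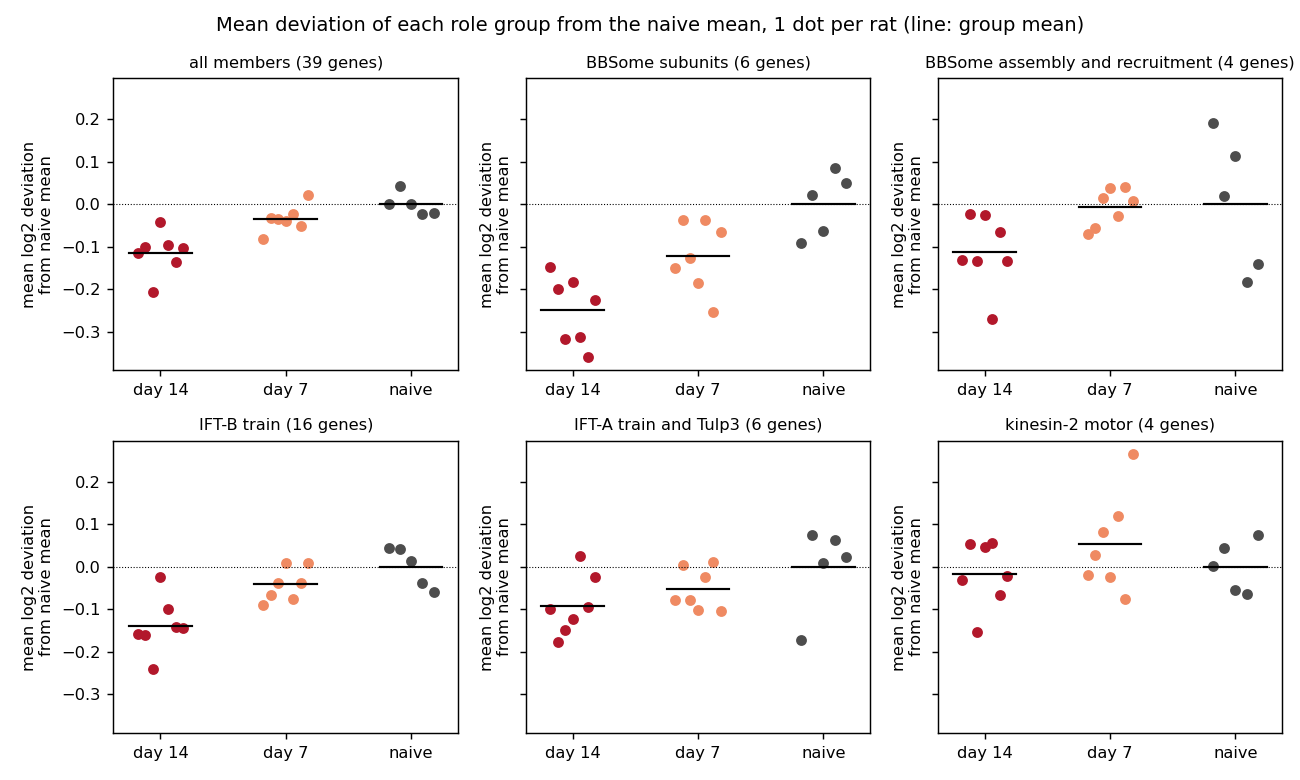
Mean log2 deviation from the naive mean (vertical axes) over the genes of each role, 1 dot per rat and a line at the group mean, for day 14, day 7 and naive. The 39-gene mean lies between -0.207 and -0.043 at day 14, between -0.081 and 0.021 at day 7 and between -0.023 and 0.042 in naive ganglia. Day 14 and naive dots are apart in that mean and in the BBSome subunits. They overlap in the other roles drawn.

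At day 7 as many members lay below naive as above it. The comparison with naive was not the one that chose the family, but it shares the naive arrays with it. No member was called (0% of all probe sets), and 5 members were lower and 2 higher at an unadjusted p under 0.05, which is 8.93% and 3.57% of members against 5.0% and 3.69% of all probe sets. Of 56 members 28 were lower, with a median of -0.002, against 47.0% of all probe sets and a median of 0.007. With 1 probe set per gene, 22 of 39 genes (56.4%) were lower with a median of -0.052, against 51.3% and -0.003 for all genes. The BBSome subunits held 4 of these 5 lower members. Without the 4 genes that prompted the family, 2 of 49 probe sets (4.08%) were lower and 2 (4.08%) higher at that unadjusted threshold. By sign, 23 of these 49 were lower, with a median of 0.012.

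Day 14 against day 7, which shares the day 14 arrays, also gave no call (0% of all probe sets). At an unadjusted p under 0.05, 9 members (16.1%) were lower and 1 was higher, against 4.22% and 7.11% of all probe sets. Without the 4 genes that prompted the family, 5 of 49 probe sets (10.2%) were lower and 1 higher at that threshold. By sign, 32 of these 49 were lower, with a median of -0.043. Of 56 members 38 were lower, with a median of -0.055, against 45.0% and a median of 0.011. At or above the median level it was 29 of 40 members, with a median of -0.061, against 56.3% and -0.014 of all such probe sets. Bbs4 gave -0.37 on 1374327_at (adjusted p = 0.288) and -0.34 on 1383007_at (adjusted p = 0.349), and Kifap3 gave -0.23 on 1374462_at (adjusted p = 0.355, all limma).

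Within groups, the 4 genes were set against each other rat by rat, as deviations from the group means over 19 arrays. Each gene was read on its called probe set only, and the other probe sets of Bbs4 and Kifap3 were not correlated. None of 6 pairs passed Benjamini-Hochberg adjustment. Bbs4 and Bbs5 had the lowest r, -0.56 (rho -0.55), with permutation p = 0.0133 and 0.0164 and adjusted p = 0.0797 and 0.0986. Without the 2 arrays farthest from the median of Bbs4 r was -0.59, and in the 9 arrays whose animal code starts with AJ it was -0.16 (permutation p = 0.690). Deviations were permuted freely across groups although each group's sum is fixed at 0, so these p-values are approximate. The other 5 pairs had r between -0.36 and 0.14.

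Genes of the cilium outside the family were read from 5 lists that hold 109 genes, 87 of them measured. None was called at either time, where 0.141% of all genes were called at day 14 and 0% at day 7. At day 14, 59 of 87 (67.8%) were lower, with a median of -0.046. Of all genes 49.3% were lower, with a median of 0.003, which is also the share to set beside each list below. By probe set, 70 of 120 (58.3%) were lower with a median of -0.019, against 43.6% of all probe sets. That background was 57.5% (median -0.026) at or above the median level and 29.7% below it. The 120 probe sets were not split by level. In the transition zone, the gate at the ciliary base, 16 of 19 genes were lower. Its range ran from Cc2d2a at -0.48 to Tmem107 at 0.07, both parts of the gate. Of 25 basal body and ciliogenesis genes 18 were lower, from Rab3ip, an activator of the ciliary GTPase Rab8, at -0.31 to Ccp110, which caps the mother centriole, at 0.28.

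Genes of the ciliary membrane and Hedgehog signalling, the cargo rather than the carriers, were on both sides, with 11 of 24 lower and a median of 0.046. They ran from Inpp5e, a phosphoinositide phosphatase, at -0.23 to the kisspeptin receptor Kiss1r at 0.25. Other BBSome and dynein-2 genes had 8 of 11 lower, from Ttc8, a BBSome subunit, at -0.28 to the light chain Dynll2 at 0.07. Of the 8 RFX and FOXJ1 regulators 6 were lower, from Rfx1 at -0.17 to Rfx2 at 0.07.

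**Figure D4:**
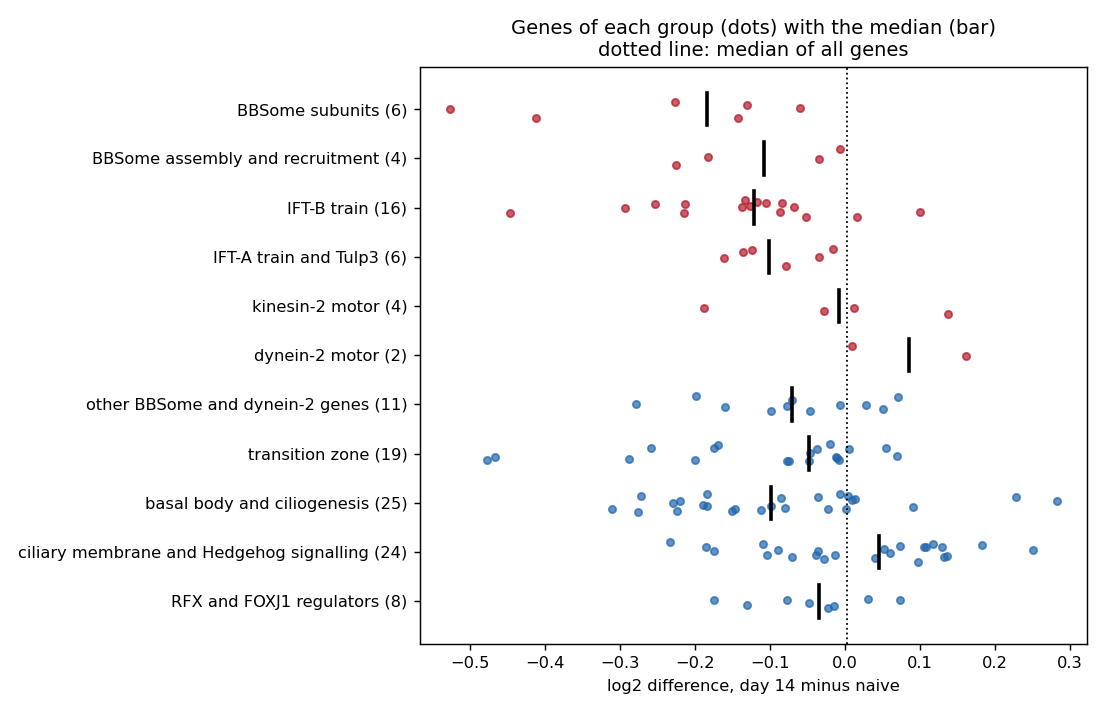
Log2 difference of day 14 minus naive (horizontal axis) of each gene, read on the probe set with the highest mean, for the roles of the family (red) and 5 lists of other cilium genes (blue), with the median as a bar. Medians run from -0.184 in the BBSome subunits to 0.046 in the ciliary membrane and Hedgehog list and 0.085 in dynein-2, and Arl3, alone in its role, is not drawn.

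All 16 measured sensory neuron markers of 17 lay above the median level of the arrays, and their mean ran from 11.97 to 12.15 at day 14, from 12.04 to 12.29 at day 7 and from 12.07 to 12.12 in naive ganglia. The macrophage markers (10 of 10 measured) averaged 7.95 at day 14, 7.69 at day 7 and 7.77 in naive ganglia. Fibroblast markers (6 of 6) averaged 11.98 at day 14, 11.66 at day 7 and 11.89 in naive ganglia. Myelinating Schwann cell markers (8 of 10) averaged 10.78 at day 14, 10.46 at day 7 and 10.77 in naive ganglia. Satellite glia (6 of 8) averaged 10.41 at day 14, 10.31 at day 7 and 10.30 in naive ganglia, and endothelium (5 of 6) 8.77 at day 14, 8.84 at day 7 and 8.71 in naive ganglia. The macrophage, fibroblast and Schwann cell means were thus lowest at day 7, and the part of these cells in the members' differences was not tested. Motile cilia, which belong to other cells, were represented by 12 measured genes of 26, of which Tppp3 alone lay above that median. Their mean ran from 5.98 to 6.15 at day 14, from 5.93 to 6.07 at day 7 and from 5.97 to 6.02 in naive ganglia. The mean of 13 skeletal muscle markers ran from 6.13 to 8.06 at day 14, from 6.03 to 9.44 at day 7 and from 6.08 to 9.78 in naive ganglia. Without 3 arrays high in muscle transcripts, 1 of each group, Bbs4 alone was still called, while the differences of Bbs4, Bbs5, Ift70a1 and Kifap3 were -0.72, -0.38, -0.46 and -0.50, about as large as with all arrays. The adjusted p-values of the last 3 genes lay between 0.052 and 0.060 (limma).

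The animal codes began with AI in 5 and AJ in 2 day 14 rats, with AJ in 5 and AK in 2 day 7 rats, and with AJ in 2 and AK in 3 naive rats. What the prefix stands for is not stated. AI occurred only in day 14 rats and AK in none of them, so prefix and group were largely confounded. With the prefix as a block no member was called, and the differences of Bbs4, Bbs5, Ift70a1 and Kifap3 were -0.67, -0.36, -0.31 and -0.42. Within AJ alone they were -0.73, -0.37, -0.36 and -0.41, from 2 day 14 and 2 naive arrays. Both sets of differences rest on the same 2 AJ day 14 arrays, so they are not independent of each other. The 3' minus 5' signal of actin and Gapdh, a sign of RNA quality and amplification, ran from 3.18 to 3.36 at day 14, from 3.16 to 3.38 at day 7 and from 3.26 to 3.69 in naive ganglia. With it as a covariate no member was called, at differences of -0.57 for Bbs4, -0.48 for Bbs5, -0.40 for Ift70a1 and -0.53 for Kifap3. With hexokinase added to the covariate 4 members were called.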

How the data were processed

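Each of 19 arrays measured 1 ganglion of 1 rat, after 2 rounds of RNA amplification per the labels' protocols, so replicates are separate animals. The deposited values are log2 expression per probe set, and the authors used RMA and limma, per the submitters' processing notes. No version of either is recorded in the labels or headers. RMA gives all arrays a common distribution, which would hide a shift of most transcripts. The submitters removed 1 further naive array, per the labels, and it is not analysed here.

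Control probe sets (57) were left out. Genes were named from the platform annotation, and all 56 members matched RefSeq (GRCr8) by gene identifier. limma 3.58.1 in R 4.3.3 fitted all 3 groups at once (4.20 prior and 16 residual degrees of freedom), with Benjamini-Hochberg adjustment over 31042 probe sets at 0.05. The fit was tested on simulated data. Correlations used 100000 resamples in Python 3.11.15 with scipy 1.17.1, or all permutations under 10 arrays. The number of arrays limits the precision.

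The members and lists were chosen with earlier results of these data known. Named genes were those called, with all their probe sets, and the lowest and highest gene of each role and list at day 14. Alternatives changed scaling, moderation, filters, blocks, covariates and arrays. Replicate numbers were checked as pairs: of 17 same-numbered pairs 3 had deviations correlated over 0.1 (range -0.259 to 0.329), and different rats share a number, so they do not pair the samples.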

Additional observations from a re-analysis of the deposited data

Results flagged for a closer look

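In 3 cases a value stood far from the rest of its group, measured by the gap to the nearest array over the group's whole range. Of 45 groups of values examined 3 had such an array, where chance gives about 1 in 20. Bbs5 (1378656_at) was lowest in day 14 replicate 5, at 6.17, with the next array at 6.39. Kifap3 (1389556_at) was highest in day 7 replicate 7, at 11.70, with the next array at 11.57. The mean deviation of the IFT-A genes and Tulp3 was lowest in naive replicate 1, at -0.17, with the other naive arrays between 0.01 and 0.08.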

How the results depend on the processing

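The number of calls at day 14, 4 in the report, moved with the setting, from 0 to 5 over 15 settings. All 4 probe sets stayed called with array weights, with a trend or robust moderation in limma, and with arrays centred on their median. The count was 2 with the values quantile-normalized again and 2 with the arrays of both groups alone. With 1 probe set per gene, which leaves out the called probe sets of Bbs4 and Kifap3, the 2 that remained, Bbs5 and Ift70a1, were both called. There was 1 without the 3 arrays high in muscle transcripts. There were 0 with the animal code prefix as a block, 0 in prefix AJ alone and 0 with a covariate for actin and Gapdh 3' to 5' signal, which was chosen after seeing the data. Over all probe sets those last settings also gave 0 calls. With the replicate number as a block 0 members and 9 of all probe sets were called, and only 6 of 34 comparisons matched an array best with its own number. Leaving out 1 array at a time gave 0 to 4 calls, with 0 without naive replicate 3, 1 without naive replicate 5 or day 14 replicate 5 or 6, and 2 without naive replicate 2 or day 14 replicate 7. Apart from the left-out probe sets, the cause was not tested.

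The median over members at day 14 stayed between -0.117 (1 probe set per gene) and -0.038 in 14 settings. At day 7 it lay between -0.052 (1 probe set per gene) and 0.012. Several members above naive at day 14 changed sign with the setting. Kif3a (1378509_at) ran from -0.097 to 0.158, Dync2h1 from -0.044 to 0.215, Arl3 from -0.039 to 0.171 and Ift70b from -0.054 to 0.158. The other Kif3a probe set, 1377025_at, stayed between 0.139 and 0.275. Without the 2 farthest arrays, the correlation changed sign for Bbs4 with Ift70a1 (-0.24), Bbs4 with Kifap3 (0.23) and Ift70a1 with Kifap3 (0.043). No member was called at day 7 against naive or at day 14 against day 7 in 15 settings. Of the 56 members 40 had a mean at or above the median level of 6.72.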
